A study of Mus musculus with 46 samples.

Results

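Open chromatin regions (OCRs) of AgRP neurons were compared between fasted and fed mice by assay for transposase-accessible chromatin with sequencing (ATAC-seq). The regions described are the 102237 peaks, of 123721 in the deposited table, whose mean over the 6 AgRP neuron libraries was above 1 CPM, the read count scaled to a common library size. A mean of 1.00005 CPM was the lowest that passed and 0.99999 CPM the highest that did not. AgRP neurons are arcuate hypothalamic cells that release AgRP, NPY and GABA to drive hunger, are active in fasting and are restrained by leptin. ATAC-seq reads mark DNA that nucleosomes leave uncovered, mostly promoters and enhancers, and enhancers open and close with the transcription factors bound there. AP-1 factors, dimers of FOS and JUN family proteins whose genes neurons switch on when they fire, bind the short palindrome TGANTCA, where N is any base.

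The study asked how chromatin and RNA of AgRP neurons follow energy state. Nuclei came from male C57BL/6J mice of 6 to 11 weeks that carried the NuTRAP reporter and AgRP-IRES-Cre, so that all groups, controls included, held both alleles and the GFP tag followed Cre activity at the Agrp locus, also where Cre acted earlier in life. Fed mice ate ad libitum and received PBS. Fasted mice were without food overnight, for 18 to 20 h, and received PBS, and leptin mice were fasted in the same way and received leptin at 5 mg/kg. Injections were given at zeitgeber time 2 to 4 and tissue was taken 3 h later. Each library was made from 10000 GFP-positive nuclei pooled from 4 mice, with 2 libraries per state, so the p-values below measure the spread between pools, not between single mice. A region with fewer counts in a pool may be open in fewer nuclei or less open in each, and bulk counts cannot tell these apart.

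The sequences that the comparison turned on are shown first, because a 7-base word separated the regions that opened from those that closed. Each line gives 100 bases of a region, from the + strand of GRCm38 (RefSeq sequence), with any match to TGANTCA in capitals. These 10 regions opened with fasting and hold the word, and they lie near genes of AgRP neuron peptides, signalling and stress or were among those with the smallest p-values. A match describes the letters of the window and does not show that a factor binds there.
Npy downstream, chr6:49829815-49829914: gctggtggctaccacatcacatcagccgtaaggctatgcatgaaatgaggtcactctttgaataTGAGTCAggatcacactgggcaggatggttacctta
Agrp distal, chr8:105639965-105640064: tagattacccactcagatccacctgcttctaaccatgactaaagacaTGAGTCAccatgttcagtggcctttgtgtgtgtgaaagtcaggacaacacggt
1700066M21Rik upstream, chr1:57243938-57244037: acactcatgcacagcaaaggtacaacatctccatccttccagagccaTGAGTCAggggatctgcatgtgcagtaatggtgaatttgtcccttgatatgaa
Mical3 intron, chr6:121018074-121018173: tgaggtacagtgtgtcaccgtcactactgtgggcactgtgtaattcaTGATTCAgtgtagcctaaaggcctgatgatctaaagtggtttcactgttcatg
Acvr1c distal, chr2:58388917-58389016: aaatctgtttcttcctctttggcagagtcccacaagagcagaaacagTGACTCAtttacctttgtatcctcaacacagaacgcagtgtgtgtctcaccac
Vgf upstream, chr5:137016105-137016204: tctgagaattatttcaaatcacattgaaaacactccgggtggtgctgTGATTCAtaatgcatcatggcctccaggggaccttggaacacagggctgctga
Nfil3 upstream, chr13:52999877-52999976: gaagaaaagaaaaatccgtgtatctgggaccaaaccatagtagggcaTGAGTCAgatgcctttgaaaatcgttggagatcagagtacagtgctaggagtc
Fkbp5 intron, chr17:28408384-28408483: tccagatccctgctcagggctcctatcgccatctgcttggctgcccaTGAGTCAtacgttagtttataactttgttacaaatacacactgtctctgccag
Per1 intron, chr11:69102491-69102590: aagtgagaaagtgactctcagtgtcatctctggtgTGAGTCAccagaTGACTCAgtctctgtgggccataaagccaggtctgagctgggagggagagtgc
Hspa5 upstream, chr2:34770258-34770357: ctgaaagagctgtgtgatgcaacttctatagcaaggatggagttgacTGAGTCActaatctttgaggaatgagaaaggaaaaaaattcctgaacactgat

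The next 2 regions also opened, with the largest fold change and the smallest p-value of all, and hold no match. The region upstream of Gm28729 is a tandem repeat whose short unit recurs along the 100 bases shown.
Lrrc30 distal, chr17:67592215-67592314: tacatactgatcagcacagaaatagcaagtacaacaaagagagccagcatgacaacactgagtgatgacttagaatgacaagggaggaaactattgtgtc
Gm28729 upstream, chr9:96535048-96535147: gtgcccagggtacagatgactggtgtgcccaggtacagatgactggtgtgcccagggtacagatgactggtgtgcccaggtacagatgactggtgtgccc

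These 4 regions closed with fasting and hold no match.
Gm9008 distal, chr6:76450019-76450118: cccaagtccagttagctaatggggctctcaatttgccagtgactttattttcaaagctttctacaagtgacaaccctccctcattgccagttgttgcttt
Itga9 intron, chr9:118737825-118737924: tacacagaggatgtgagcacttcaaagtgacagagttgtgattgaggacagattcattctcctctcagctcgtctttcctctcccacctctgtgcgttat
Corin intron, chr5:72432810-72432909: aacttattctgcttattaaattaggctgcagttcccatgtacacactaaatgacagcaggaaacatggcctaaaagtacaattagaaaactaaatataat
Sox4 downstream, chr13:28944835-28944934: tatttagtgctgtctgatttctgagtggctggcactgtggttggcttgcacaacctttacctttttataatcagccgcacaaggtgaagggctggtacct

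The libraries held 15745558 and 15710305 counts in fasted, 8263234 and 14324992 in fed and 14455862 and 17190963 in leptin mice, so that fed replicate 1 had the least depth. Log CPM over peaks correlated at r = 0.942 between the fasted libraries, 0.924 between the fed and 0.951 between the leptin libraries. Between fed and fasted libraries r ran from 0.736 to 0.827, and between fasted and leptin libraries from 0.896 to 0.928. The fed libraries thus stood apart from the other 4. They also had more of their counts in promoter peaks, 51.3% and 54.4%, against 46.3% and 47.8% in fasted libraries. Mitochondrial peaks held 1.14%, 1.65% and 1.49% of counts in replicate 1 of fasted, fed and leptin mice and 0.683%, 0.73% and 0.731% in replicate 2. The share was higher in replicate 1 of every state and lowest in the fasted library of each replicate number.

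All 12 genes listed as AgRP neuron markers had a promoter peak among those tested, and none was called in either direction. Their summed level was 495 and 435 CPM in fasted and 494 and 455 CPM in fed libraries. In separate sorted nuclei of untreated fed mice, these promoters had a median log2 ratio of 1.24 between AgRP-positive and AgRP-negative nuclei, with 3.24 at Agrp and 2.47 at Npy. The ratio was lower at Gad1 (0.71), Gad2 (0.64), Slc32a1 (0.61), Npy2r (0.33) and Mc3r (0.25), below the 0.94 at Vim of the tanycyte and ependymal list. None of 7 microglia markers and 1 of 9 oligodendrocyte markers, Mbp, had a tested promoter peak, and Olig1, Olig2, Sox10 and Mog had none. Tested promoter peaks also stood at 5 of 7 astrocyte, 5 of 6 tanycyte and ependymal, 4 of 10 other arcuate neuron and 1 of 5 endothelial markers, whose levels are given with those cell types. The AgRP marker promoters were thus all open, with the highest ratios at Agrp and Npy, while promoters of some other cell types were open too.

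Chromatin of AgRP neurons differed widely between the states. A call needed an FDR below 0.05 in edgeR's quasi-likelihood test, with Benjamini-Hochberg adjustment, and a log2 fold change of 0.5 or more either way. By this rule 18512 of 102237 OCRs were fasted-opened (18.1% of those tested) and 9076 were fasted-closed (8.88%). Opened OCRs made up 67.1% of the calls and had a median log2 fold change of 1.80. Closed OCRs had a median of -1.38. Of the opened OCRs, 7107 changed by a log2 fold of 2 or more and 1322 by 3 or more, against 1552 and 192 closed OCRs at -2 and -3 or less. Both fasted libraries lay above both fed libraries at 18479 of the opened OCRs, an order that 33.7% of all tested OCRs had, and below them at 9044 of the closed OCRs, an order that 31.8% had.

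The median opened OCR had 5.69 and 5.74 CPM in the fasted and 1.38 and 1.68 CPM in the fed libraries. The median closed OCR had 2.39 and 2.21 CPM in the fasted and 7.68 and 5.70 CPM in the fed libraries. Opened OCRs held 16.2% and 15.7% of all counts in fasted libraries and 4.67% and 5.84% in fed libraries. Closed OCRs held 5.36% and 5.30% of the counts in fasted and 11.6% and 9.59% in fed libraries. The mean that decided which OCRs were tested covers 4 libraries of fasted mice, with or without leptin, and 2 of fed mice, so a region open only in fasted mice passed more easily.

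The balance of the directions depended on the scaling. Scaling that set the middle of promoter peaks or of CTCF-bound peaks level between states made 82.6% or 84.3% of the calls opened and moved the median of all OCRs from -0.04 to 0.18 or 0.24. Offsets against abundance or against GC content made 55% or 47.0% opened. Under each of 20 settings the share of opened OCRs with an AP-1 word stayed between 67.6% and 75.2% and that of closed OCRs between 4.91% and 7.71%. At the call threshold, the last opened OCR had 3.75 and 2.08 CPM in fasted and 0.252 and 1.46 CPM in fed libraries (FDR 0.0499789), and the next outside it 3.49 and 2.46 against 0.629 and 1.54 CPM (FDR 0.0500015).

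**Figure D1:**
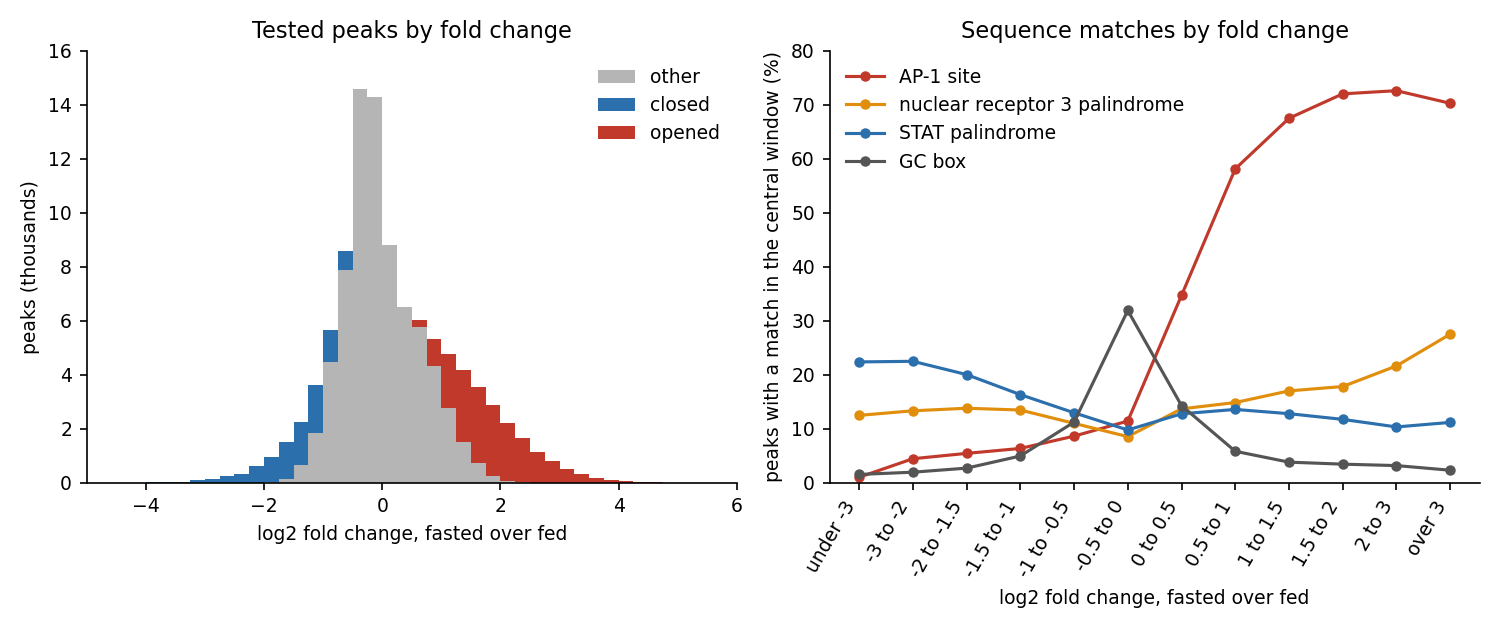
Left, number of tested OCRs, in units of 1000, by log2 fold change of fasted over fed, stacked by call. Right, percent of OCRs in each range of log2 fold change with an exact match in the central 300 bases. The AP-1 line rises from 11.4% just under 0 to 72.0% between 1.5 and 2, while the GC box of promoters peaks at 31.9% among OCRs that barely moved.

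The AP-1 word separated the classes. An exact match to TGANTCA, which reads as the same family of words on either strand, was found in the central 300 bases of 71.1% of opened, 5.43% of closed and 25.8% of other OCRs, beside 32.2% of all tested OCRs. In an OCR narrower than 300 bases this window took in flanking sequence, and a word there was counted as held by the OCR. The more AP-1 words an OCR held, the more often it opened. Of 69343 OCRs with none, 7.71% opened and 12.4% closed. With 1 word 35.1% of 26396 opened, with 2 words 58.6% of 5727, and with 3 or more 72.2% of 771, where 0.13% closed. The median log2 fold change in these groups was -0.26, 0.83, 1.37 and 1.59.

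The level of these OCRs in fed nuclei was low. OCRs with 2 AP-1 words had a median of 1.26 and 1.83 CPM in the fed libraries, less than the 5.04 and 4.31 CPM of those with none, and 4.53 and 4.54 CPM in the fasted libraries. Words with G or C in the middle, the preferred form of FOS-JUN dimers, were found alone in 22825 OCRs, of which 39.7% opened. Words with A or T were found alone in 7285, of which 33.5% opened, and 2784 OCRs held both kinds, of which 59.9% opened. The share of closed OCRs was 0.907%, 3.83% and 0.216% in that order.

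The words lay near the middle of the opened OCRs. In opened OCRs that held one, the nearest word was a median of 41.5 bases from the peak centre, in closed OCRs 80.5 and in other OCRs 49.5. In opened OCRs the density of words was 5.21 per 100 OCRs in the 10 bases right of the centre and 1.45 at 130 to 140 bases from it. In closed OCRs it was 0.132 and 0.297, with no peak at the centre. The outermost 10 bases on each side are left out, since a word that runs past the window is not counted there.

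**Figure D2:**
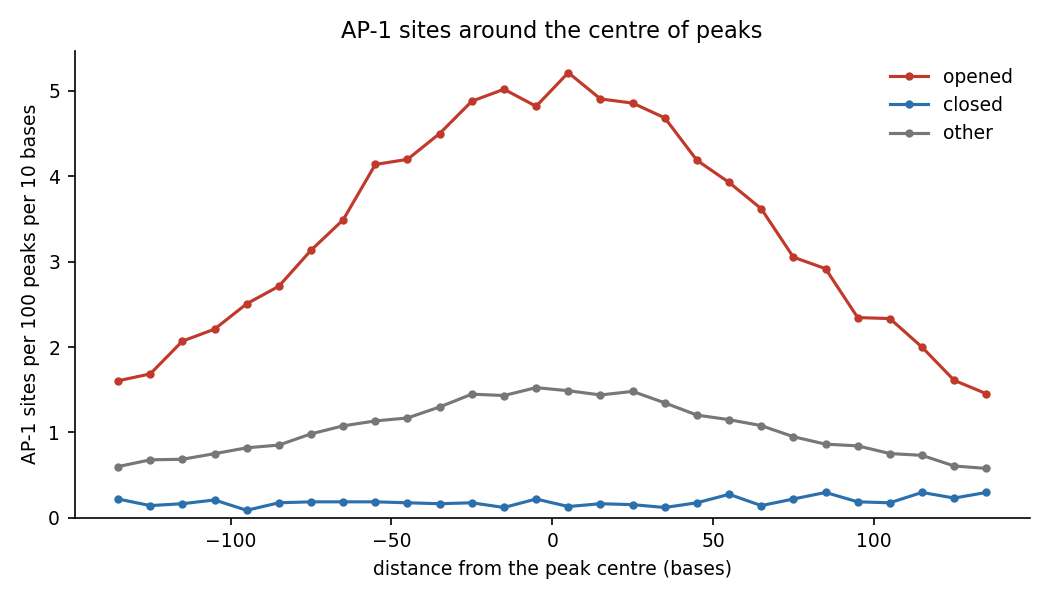
AP-1 words (matches to TGANTCA) per 100 OCRs in each 10 bases, by distance from the peak centre in bases, for opened, closed and other OCRs. Opened OCRs rise to about 5 per 100 around the centre, other OCRs to about 1.5, and closed OCRs stay under 0.5 throughout the bins shown, which leave out the outermost on each side.

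The difference in AP-1 words held at like base composition. Opened and closed OCRs had nearly the same median GC content, 44.9% and 44.7%, against 49.0% in other OCRs. When the tested OCRs were split into 5 equal groups by GC content, AP-1 words were in 70.0% to 73.9% of the opened OCRs of each group and in 1.51% to 7.09% of the closed. Among other OCRs the share fell from 39.7% in the group of lowest to 8.04% in that of highest GC content. The log2 fold change itself moved with GC content, from a median of 0.33 at the lowest to -0.22 at the highest GC content.

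Among 22 other words searched, the palindrome ACANNNTGT, bound by the glucocorticoid, progesterone and androgen receptors, was in 19.7% of opened, 12.8% of closed and 11.6% of other OCRs. It was in 27.5% of the OCRs with a log2 fold change over 3. Opened OCRs without an AP-1 word held it more often, at 25.4%, than those with one, at 17.4%. The STAT palindrome TTCNNNGAA, the core of sites bound by STAT3 downstream of leptin, was in 11.4% of opened, 16.7% of closed and 12.1% of other OCRs, and in 22.4% of the 192 that closed most. Both shares moved with base composition. In the group of lowest GC content the nuclear receptor word was in 22.2% of opened, 15.9% of closed and 19.5% of other OCRs, and the STAT word in 14.5% of opened, 22.8% of closed and 19.3% of other OCRs.

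Closed OCRs held several other words more often than opened or other OCRs did. The RFX word GTTGCCATG was in 3.95% of closed, 2.08% of other and 0.621% of opened OCRs. The interferon response word GAAANNGAA was in 13.0%, 9.45% and 9.41%. Its shares moved with base composition. They were 18.2%, 15.0% and 13.5% in the group of lowest GC content. In group 4 of the 5, counted from the lowest, they were 6.76%, 7.93% and 5.76%, where other OCRs held it more often than closed. The word TTACGTAA, bound by NFIL3 and by the clock-driven PAR bZIP proteins such as DBP, was rare, in 0.331% of closed, 0.0992% of other and 0.0918% of opened OCRs, which are 30, 74 and 17 OCRs. The NR4A word AAAGGTCA was in 1.92%, 1.36% and 1.15%, the FOX word GTAAACA in 5.55%, 4.33% and 4.91%, and the homeodomain word TAATTA in 7.85%, 5.44% and 7.06%, in the same order. The cyclic AMP response element TGACGTCA, a near relative of the AP-1 word by a base inserted in its middle, did not follow it and was in 0.54%, 0.32% and 0.874% of opened, closed and other OCRs.

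Opened and closed OCRs were less frequent among promoters than among OCRs elsewhere. Of 16671 promoter OCRs (from 1000 bases before to 100 bases after an annotated start) 3.57% opened and 4.32% closed. Of 45820 in introns 20.9% opened and 8.97% closed, and of 31647 between genes 22.0% and 11.5%. Within 1 kb of a protein-coding start 1.79% opened, and from 1 to 5 kb already 20.1%, a share that stayed between 20.1% and 21.6% at every greater distance. The closed share went on rising, from 3.74% within 1 kb to 13.7% beyond 100 kb. Promoter OCRs had a median log2 fold change of -0.22 as scaled here, -0.01 when scaled on promoters themselves and 0.06 when scaled on CTCF-bound OCRs, so no direction is given for them as a class. The promoters that did open held the AP-1 word at 62.9%, against 6.9% of promoters that were not called.

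**Figure D3:**
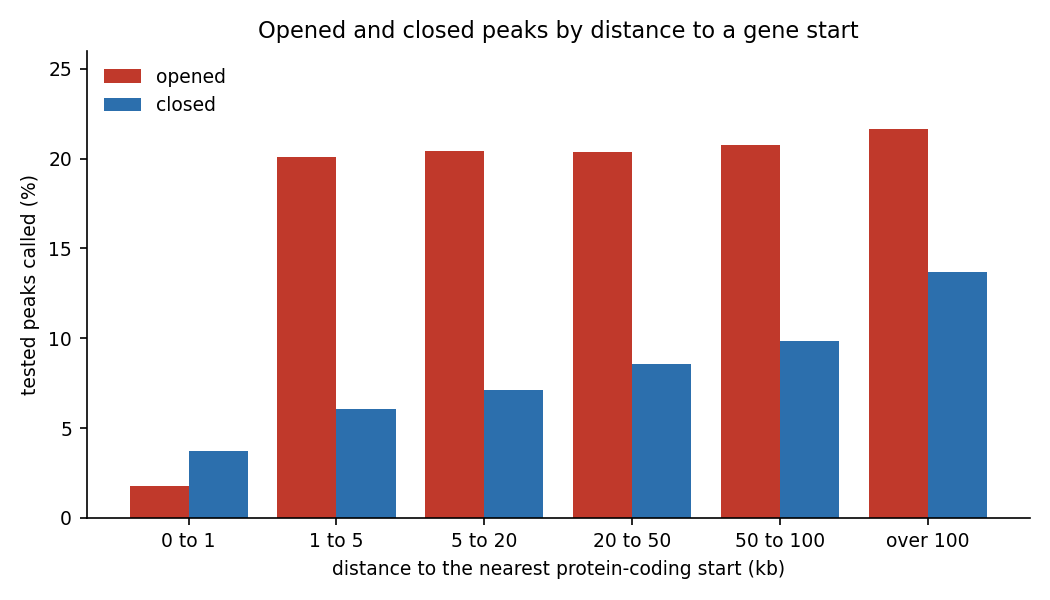
Percent of tested OCRs that opened or closed, by distance (kb) of the OCR to the nearest protein-coding start. Opened OCRs are 1.79% within 1 kb and 20.1% to 21.6% in every bin beyond, and closed OCRs rise from 3.74% to 13.7%.

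Opened OCRs were poor in CTCF, the insulator protein that anchors chromatin loops. CTCF peaks from cleavage under targets and release using nuclease (CUT&RUN) in AgRP nuclei overlapped 5.43% of opened, 24.4% of closed and 24.4% of other OCRs. IRF3 peaks, from CUT&RUN in fed mice of a model that overexpresses the IRF3-2D variant in AgRP neurons, overlapped 1.69%, 9.73% and 11.9%. Each list came from 1 library of fed mice.

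An independent set of fed nuclei gave a view of the same regions that the fold change did not use. In the sorted nuclei of untreated fed mice, peaks had been called at 29.2% of the opened OCRs, 76.8% of the closed and 58.0% of the others. Opened regions were therefore mostly not called as peaks in fed nuclei from other mice, and closed regions mostly were. Where such a peak existed, the median log2 ratio of AgRP-positive over AgRP-negative nuclei was 0.99 at 5404 opened, 0.54 at 6974 closed and -0.01 at 43270 other OCRs.

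Of the opened OCRs of smallest p-value, 4 are described. The region upstream of Gm28729, chr9:96534604-96535591, the tandem repeat printed above, had 55.9 and 53.8 CPM in fasted and 5.92 and 2.49 CPM in fed libraries. The rise on the log2 scale was 3.84 ± 0.30 (SE), at an edgeR FDR of 3.02e-06. Named OCRs had been required to show no overlap of fasted and fed libraries. The leptin libraries, which entered the same fit and filter, lay near the fasted at all 4.

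The intergenic OCR 134 kb upstream of 1700066M21Rik, chr1:57243700-57244334, had 22.9 and 25.4 CPM in fasted and 1.13 and 1.10 CPM in fed libraries, a log2 fold change of 4.43 ± 0.38. It holds the word TGAGTCA near its centre, as printed. An OCR in a promoter window inside C2cd3, chr7:100380494-100381482, 8.68 kb upstream of Ppme1, had 35.4 and 33.3 CPM in fasted and 3.27 and 4.02 CPM in fed libraries, a log2 fold change of 3.20 ± 0.27. The OCR in an intron of Mical3, a gene of an actin-modifying enzyme, chr6:121017663-121018445, had 55.3 and 45.5 CPM against 5.67 and 8.48 CPM. Its log2 fold change was 2.78 ± 0.25.

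The 5 opened OCRs of largest fold change had almost no reads in fed libraries, between 0.0731 and 0.293 CPM, so that their folds are imprecise. At the highest, chr17:67592040-67592488, 40.5 kb from Lrrc30, the fasted libraries had 13.7 and 13.9 CPM and the fed 0.126 and 0.293 CPM (log2 fold change 5.85 ± 0.58). The others were nearest Mphosph6, C1ql1, Mcam and Mterf1b, with log2 fold changes between 5.15 and 5.72. C1ql1, Mcam and Mterf1b OCRs held AP-1 words.

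None of the 10 named closed OCRs held an AP-1 word. The OCR 70.7 kb from Camk2n1, an inhibitor of the synaptic kinase CaMKII, chr4:138524785-138525330, had 2.91 and 2.90 CPM in fasted and 34.5 and 22.9 CPM in fed libraries. It fell by 3.27 ± 0.31 on the log2 scale. The OCR near Gm9008, chr6:76449750-76450386, had 1.55 and 1.45 CPM against 17 and 19.7 CPM, and fell by 3.62 ± 0.36. Fasted levels were about as low in both pools, and the leptin libraries were low as well, with 1.55 and 1.75 CPM near Camk2n1 and 2.82 and 1.41 CPM near Gm9008.

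An intron of Itga9, an integrin, held an OCR, chr9:118737485-118738264, with 3.36 and 3.60 CPM in fasted and 23.4 and 23.8 CPM in fed libraries, which fell by 2.76 ± 0.29. Of the strongest OCRs, that near Rbm46, chr3:82799520-82800573, had 14.5 and 16 CPM in fasted and 57.7 and 53.2 CPM in fed libraries. Nrn1 encodes neuritin, a secreted protein that promotes neurite growth, and its nearest closed OCR, in Fars2, had 3.81 and 3.41 CPM against 26.8 and 21.4 CPM. The 5 closed OCRs of largest fold, nearest Iqcm, Htr1f, Pitrm1, Ppfia2 and Fam84a, had between 0.0631 and 0.388 CPM in fasted libraries. The Ppfia2 OCR, in an intron of that presynaptic scaffold gene, had 0.388 and 0.316 CPM in fasted and 9.44 and 6.36 CPM in fed libraries.

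**Figure D4:**
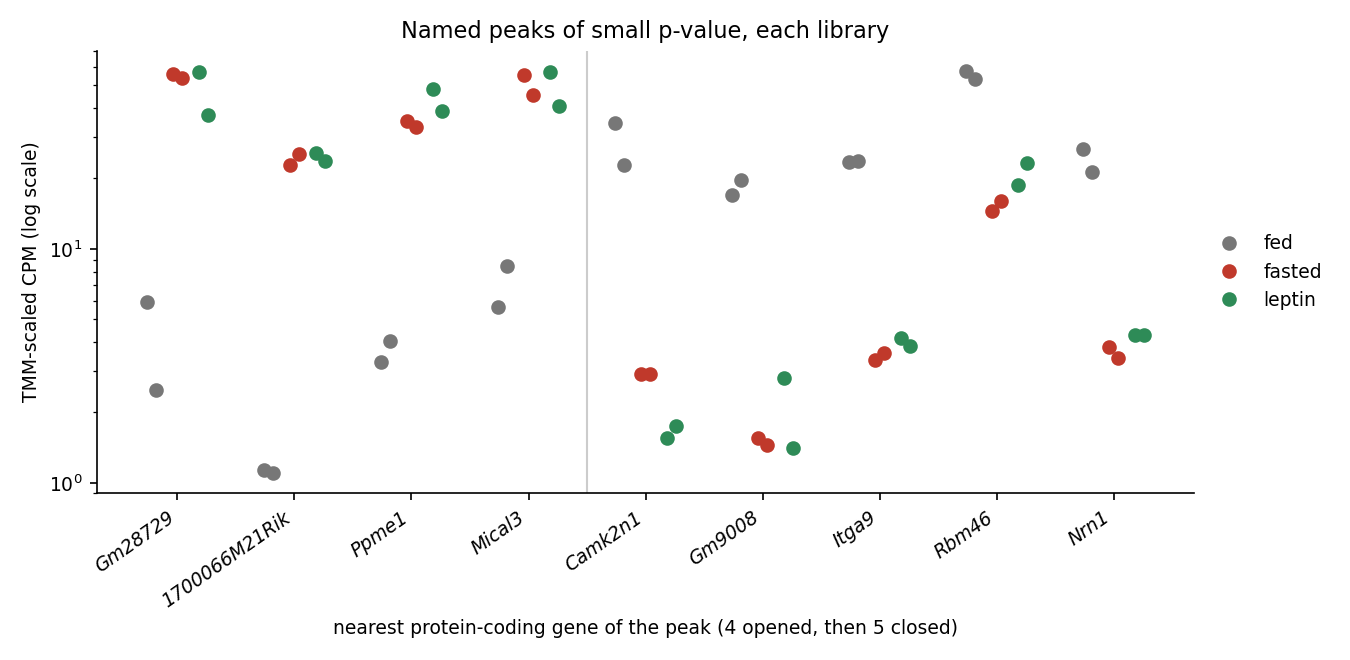
TMM-scaled CPM (log axis) of each fed, fasted and leptin library at 4 opened and 5 closed OCRs of small p-value, labelled by the nearest protein-coding gene. The OCRs were chosen for no overlap of fasted and fed libraries, and at each of the 9 the leptin libraries lie on the fasted side.

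Distal OCRs opened at Npy, 1 of 5 OCRs opened at Agrp, and whether either promoter was called depended on the scaling. Npy encodes the orexigenic peptide NPY. Its promoter OCR had 47.8 and 42.3 CPM in fasted and 34.5 and 36.8 CPM in fed libraries (log2 fold change 0.33 ± 0.19, FDR 0.195 by edgeR). The states did not overlap there, but the difference did not pass the test. The Npy promoter peak was called when scaled on promoters (0.55, FDR 0.0423) or on CTCF-bound OCRs (0.61, FDR 0.0201). Of 35 tested OCRs nearest Npy, 19 opened, against 18.1% of all OCRs, and 1 closed. The opened OCRs ran from 185 kb upstream to 121 kb downstream, 10 of them within 50 kb, and 13 held an AP-1 word.

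The Npy OCR of smallest p-value, chr6:49828283-49831246, spans the last exon and the sequence just downstream of the gene, 7.05 kb from the start. It had 89.0 and 61.0 CPM in fasted and 21.4 and 15.5 CPM in fed libraries, a log2 fold change of 2.06 ± 0.24 (FDR 2.10e-05). At 1.41 kb upstream of the start an OCR with 2 AP-1 words had 31.3 and 24.2 CPM in fasted and 5.92 and 7.61 CPM in fed libraries. All 19 opened Npy OCRs rose between a log2 fold of 0.83 and 2.86.

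**Figure D5:**
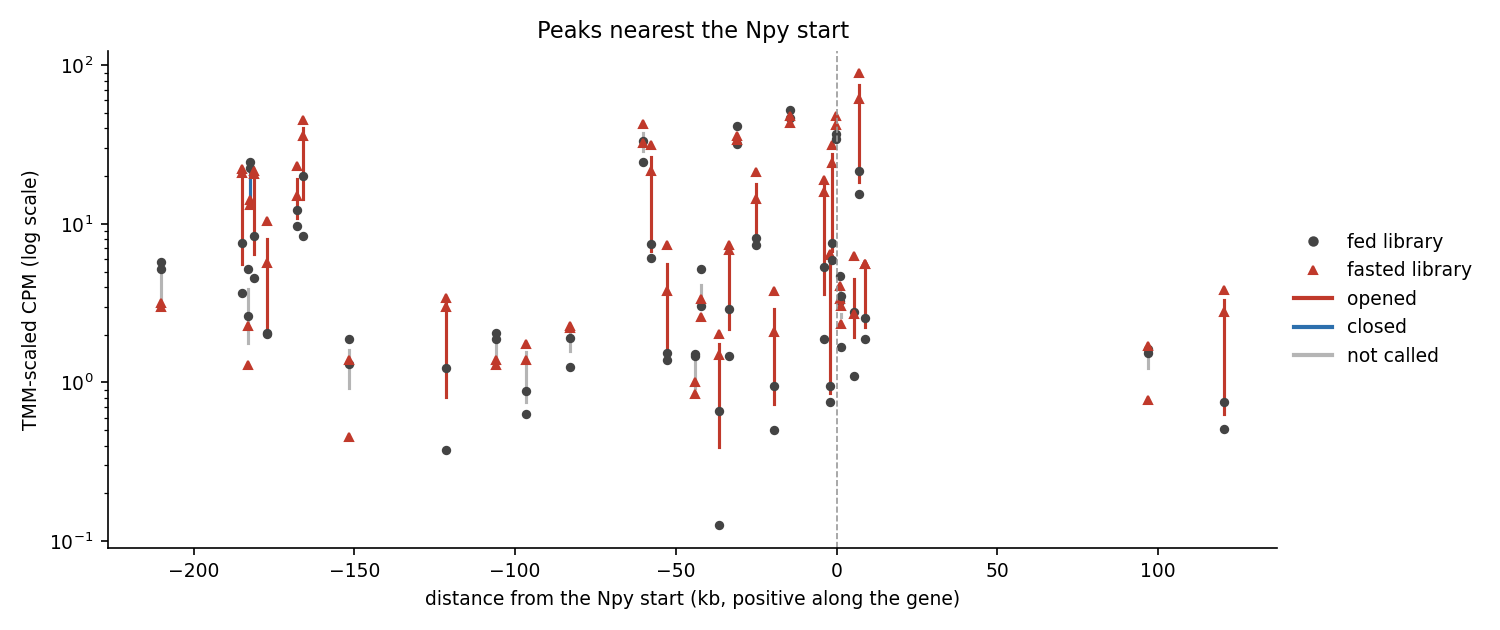
Level (TMM-scaled CPM, log axis) of the 35 OCRs nearest the Npy start in each fed (dots) and fasted (triangles) library, by distance from the start in kb. Lines join the state means and show the call: 19 OCRs opened, 1 closed, and the promoter OCR at 0 kb was not called with TMM over all OCRs, though it was when scaled on promoters or CTCF-bound OCRs.

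Agrp encodes the melanocortin antagonist that names these neurons. Its promoter OCR had 144 and 122 CPM in fasted and 118 and 105 CPM in fed libraries (log2 fold change 0.26 ± 0.12, FDR 0.104 by edgeR). The Agrp promoter peak was called when scaled on CTCF-bound OCRs (0.54, FDR 0.00223) or with abundance offsets (0.62, FDR 7.28e-04). Of 5 OCRs assigned to Agrp, 1 opened, beside 18.1% of all OCRs. The opened OCR lies in an intron of Ctcf, chr8:105639923-105640066, 2.60 kb from an alternative annotated Agrp start. The Agrp promoter OCR is at chr8:105567254-105568511. The opened OCR holds an AP-1 word and had 7.89 and 7.13 CPM in fasted and 1.01 and 1.90 CPM in fed libraries (2.26 ± 0.43). Acvr1c, a receptor of activin-type ligands, had an OCR in the neighbouring gene Acvr1, 31.1 kb upstream, with 10.5 and 10.6 CPM in fasted and 1.26 and 2.27 CPM in fed libraries.

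Corin, a membrane protease gene marking AgRP neurons, had 1 opened and 2 closed OCRs of 20. That of smallest p-value, an intronic OCR, chr5:72432584-72433135, had 0.388 and 0.252 CPM in fasted and 5.79 and 4.24 CPM in fed libraries and fell by 3.89 ± 0.53 on the log2 scale. Otp, a homeodomain factor that specifies these cells, had an OCR 48.4 kb downstream with 3.88 and 5.05 CPM in fasted and 1.38 and 1.68 CPM in fed libraries (1.50 ± 0.44, FDR 0.0153). That call was lost without fasted replicate 2 (FDR 0.0874), fed replicate 1 (0.0668) or fed replicate 2 (0.0738). Over all 12 AgRP marker genes, 43 of 184 OCRs opened, 19 of them at Npy, and 17 closed, 23.4% and 9.24%, beside 18.1% and 8.88% of all OCRs, with a median log2 fold change of 0.04 beside -0.04 for all OCRs.

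Among receptors for metabolic signals, Ghsr, the ghrelin receptor, had 5 opened and 2 closed OCRs of 16. The OCR 39.6 kb downstream of its start, chr3:27410617-27411335, had 13.4 and 12.2 CPM in fasted and 2.77 and 3.22 CPM in fed libraries, a log2 fold change of 2.07 ± 0.34. Lepr, the leptin receptor, had 1 opened and 1 closed OCR of 11. The closed OCR, 15.7 kb upstream, chr4:101701105-101702320, had a log2 ratio of 3.03 for AgRP-positive over AgRP-negative nuclei. It had 28.0 and 15.7 CPM in fasted and 45.8 and 41.8 CPM in fed libraries and fell by 1.00 ± 0.23 (FDR 0.00327), a call lost without fasted replicate 2, where it fell by 0.64 (FDR 0.0802). Npy2r, the receptor by which NPY and PYY restrain AgRP neurons, had 5 closed OCRs of 17 and 1 opened. Over 12 feeding receptor genes 24 of 120 OCRs opened and 16 closed, 20% and 13.3%, against 18.1% and 8.88% of all OCRs.

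Over the 19 endoplasmic reticulum stress and secretory genes, 16.8% of 143 OCRs opened and 7.69% closed, near the 18.1% and 8.88% of all OCRs, and 3 of 27 promoter OCRs opened, beside 3.57% of all promoter OCRs. The promoters of Vgf, Hspa5 and Pcsk1 were not called, except that the Pcsk1 promoter closed with the replicate block and GC offsets. Vgf encodes a granin-like precursor of secreted peptides. Its OCR 10.3 kb upstream, chr5:137016027-137016242, had 6.59 and 4.48 CPM in fasted and 0.378 and 0.731 CPM in fed libraries, a log2 fold change of 3.18 ± 0.56. The 300 bases around the centre of this OCR, which reach past its 216 bases, hold 2 AP-1 words, 1 of them printed above. Hspa5, the chaperone BiP of the endoplasmic reticulum, had an OCR 1.66 kb upstream with 3.56 and 5.49 CPM against 0.504 and 0.585 CPM (3.01 ± 0.58). The Hspa5 promoter also holds an AP-1 word and was not called, with 78.2 and 75.9 CPM in fasted and 84.2 and 96.7 CPM in fed libraries. Pcsk1, a prohormone convertase, had 6 opened and 2 closed of 21. The Pcsk1 OCR of smallest p-value, 128 kb upstream, closed, from 8.69 and 3.51 CPM in fed to 0.646 and 0.884 CPM in fasted libraries.

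Of the immediate early genes, which neurons transcribe within minutes of activity, the promoters of Fos, Fosb, Junb and Npas4 were not called. Over the list 3 of 39 promoter OCRs opened and 1 closed, beside 3.57% and 4.32% of all promoter OCRs. The Fos promoter had 34.8 and 27.8 CPM in fasted and 35.9 and 37.4 CPM in fed libraries. A Fos OCR 32.1 kb upstream had 5.95 and 3.72 CPM in fasted and 1.76 and 1.39 CPM in fed libraries (1.65 ± 0.43, FDR 0.00778), a call lost without fasted replicate 1 (FDR 0.0738) or fed replicate 2 (0.0988). The Nr4a1 promoter peak, at an orphan nuclear receptor gene, had 39.9 and 17.8 CPM in fasted and 11.5 and 16.7 CPM in fed libraries (0.99 ± 0.31, FDR 0.0243). That call rested on fasted replicate 1: without it the log2 fold change was 0.30 (FDR 0.539), and without fed replicate 1 it was 0.78 (FDR 0.116). A Fosb intronic OCR was called at an FDR of 0.0454 and lost without fasted replicate 2 (FDR 0.249), fed replicate 1 (0.0771), fed replicate 2 (0.229), leptin replicate 1 (0.0606) or leptin replicate 2 (0.0568). It was also lost with RLE scaling, abundance offsets, DESeq2 and thinned counts.

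The immediate early gene list had 47 of 188 OCRs opened, 25%, and 13 closed, 6.91%, beside 18.1% and 8.88% of all OCRs. Of these 17 opened OCRs were nearest Myc, a growth regulator, from 60.1 kb upstream to 852 kb downstream, and 14 of the 17 held an AP-1 word. The glucocorticoid response list had 40 of 174 opened, 23.0%, and 14 closed, 8.05%, beside the same shares of all OCRs. In Fkbp5, a chaperone of the glucocorticoid receptor, an intronic OCR, chr17:28408338-28408691, had 5.17 and 5.74 CPM in fasted and 1.26 and 1.17 CPM in fed libraries, a log2 fold change of 2.17 ± 0.47. It holds an AP-1 word.

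Over 12 clock genes 15 of 82 OCRs opened and 9 closed, 18.3% and 11.0%, near the 18.1% and 8.88% of all OCRs. Nfil3 encodes a repressor that binds the same word as DBP, and its OCR 18.9 kb upstream, chr13:52999773-53000269, had 19.8 and 19.6 CPM in fasted and 4.41 and 6.80 CPM in fed libraries (1.75 ± 0.29). Of 14 Nfil3 OCRs 4 opened and 0 closed. The Nfil3 promoter was lower in fasted libraries, at 59.7 and 55.1 CPM against 72.4 and 79.8 CPM, and its log2 fold change of -0.41 (FDR 0.0359) missed the call on size. Dbp encodes the clock-driven activator, and 3 of its 5 OCRs closed. The intronic OCR 0.786 kb from the Dbp start had 2.84 and 2.34 CPM in fasted and 9.69 and 11.5 CPM in fed libraries and fell by 2.05 on the log2 scale (FDR 1.96e-04). The Dbp promoter had 53.6 and 72.5 CPM in fasted and 88.1 and 109 CPM in fed libraries and fell by 0.65, a call lost under scaling on promoters or on CTCF-bound OCRs, under abundance offsets, and without fasted replicate 1 (FDR 0.0866) or fed replicate 2 (0.0576). The Dbp OCR 1.62 kb from the start fell by 0.99 and was lost without the same libraries (FDR 0.0549 and 0.0593).

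Per1, a core clock repressor that also responds to neuronal activity, had an intronic OCR, chr11:69102441-69102660, with the 2 AP-1 words printed above 5 bases apart. It had 14.2 and 11.4 CPM in fasted and 3.65 and 6.51 CPM in fed libraries (1.25 ± 0.35, FDR 0.0117), a call lost without fasted replicate 1 (FDR 0.0626) or fed replicate 1 (0.0699). Leptin and STAT3 genes had 15 of 77 opened and 6 closed, 19.5% and 7.79%, near the 18.1% and 8.88% of all OCRs. In that list the Socs3 OCR 14.8 kb downstream of this feedback inhibitor fell by 1.02 (FDR 0.0108), from 18.4 and 24.0 CPM in fed to 7.37 and 13.9 CPM in fasted libraries, and was lost without fasted replicate 1 (FDR 0.160) or fed replicate 2 (0.111) and when scaled on CTCF-bound OCRs.

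Of all OCRs 18.1% opened and 8.88% closed. Glutamate receptor genes had 57 of 271 OCRs opened and 35 closed, 21.0% and 12.9%, with Grm7 alone holding 13 and 7. GABA receptor genes had 20 of 116 opened and 8 closed, 17.2% and 6.9%. The 10 housekeeping genes had 5 of 27 opened and 1 closed. By number, opened OCRs were most numerous at long neuronal genes. Nrxn3, a presynaptic adhesion gene, had 28 of 101, Dlg2 23 of 105 and Kcnma1 23 of 94, but all of these also had closed OCRs. Dab1, the intracellular adaptor of reelin signalling, had 20 of 56 opened and 0 closed. Closed OCRs were most numerous at Celf4, with 17 of 103, and Ntm, with 17 of 77, and both also had 18 or 19 opened.

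Regions near markers of other cell types moved too. The promoter OCR of Aqp4, the astrocyte water channel, had 13.3 and 14.5 CPM in fasted and 1.26 and 1.46 CPM in fed libraries (log2 fold change 3.32 ± 0.40). Over 7 astrocyte markers, 5 with a promoter peak summed to 39.0 and 44.1 CPM in fasted and 33.0 and 32.8 CPM in fed libraries, Aqp4 included. Aqp4 was the only astrocyte promoter called. Slc1a2, the strongest, had 18.1 and 23.9 CPM in fasted against 24.8 and 26.7 CPM in fed libraries. Slc1a3 had 1.10 and 0.947 against 1.38 and 0.804 CPM, Gja1 1.68 and 2.02 against 1.38 and 1.39 CPM, and Agt 4.78 and 2.71 against 4.15 and 2.49 CPM. Gfap and Aldh1l1 had no tested promoter OCR. Of 5 endothelial markers, the promoter window of Pecam1, shared with Milr1, opened, with 12.0 and 12.2 CPM against 2.27 and 5.63 CPM. Upstream of Cldn5, an endothelial tight junction gene, 5 of its 7 nearest OCRs opened, the remaining 2 lying farther upstream and in an exon, while Cldn5 itself, Flt1, Tek and Cdh5 had no tested promoter OCR.

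The 5 tanycyte and ependymal promoters summed to 78.7 and 72.1 CPM in fasted and 80.8 and 90.6 CPM in fed libraries, with Vim the strongest, and 4 promoters of other arcuate neurons to 16.1 and 15.1 against 15.9 and 12.4 CPM. The Mbp promoter had 38.1 and 33.3 CPM against 44.2 and 45.6 CPM. When every OCR in a promoter window was counted by its nearest gene, the 9 oligodendrocyte markers had 4. Of these 1 opened, beside 3.57% of all promoter OCRs. An OCR 9.57 kb downstream of Olig2, an oligodendrocyte lineage factor, with 2 AP-1 words, had 7.43 and 8.21 CPM in fasted and 0.629 and 0.658 CPM in fed libraries (3.58 ± 0.50). In Slc17a6, which marks glutamatergic neurons, 2 OCRs of 6 opened and 1 closed, an intronic OCR that fell by 1.72 ± 0.35. Of 14 OCRs nearest Sox2, a tanycyte and progenitor factor, 3 opened and 2 closed. The Sox2 OCR of smallest p-value, 530 kb from the start, fell by 2.65 ± 0.61. Over whole lists the shares opened were 18.4% of 49 astrocyte, 18.5% of 65 oligodendrocyte, 11.1% of 18 microglia, 14.3% of 49 tanycyte, 34.4% of 32 endothelial and 13.6% of 81 other arcuate neuron OCRs, beside 18.1% of all OCRs. The shares closed were 14.3%, 12.3%, 5.56%, 14.3%, 9.38% and 7.41% in the same order, beside 8.88% of all OCRs. The part of other cell types in the called OCRs was not tested.

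RNA bound to ribosomes of AgRP neurons, from other mice of the same states, gave a second readout. By edgeR 378 of 13401 genes were induced in 4 fasted over 3 fed libraries (2.82%) and 143 were repressed (1.07%). With the replicate number as a block, 590 were induced and 340 repressed. The labels do not state that libraries of one number were paired. The block was used because deviations of such libraries correlated in the same data, at 0.536 to 0.814. OCRs nearest induced genes opened more often than others. Of 2922 such OCRs 26.5% opened and 6.74% closed, and of 1066 nearest repressed genes 14.8% opened and 12.2% closed, against 17.5% and 8.79% of those nearest genes that did not pass. With the blocked calls the shares were 24.9% and 6.86%, and 15.3% and 11.9%.

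Tested OCRs were nearest to 337 induced, 127 repressed and 11211 other genes, and the following shares are of these genes. At least 1 opened OCR was nearest to 71.8% of induced, 55.1% of repressed and 47.5% of other genes, and at least 1 closed OCR to 27.3%, 55.9% and 29.6%. A gene with more OCRs has more chances of a called one, and the number of OCRs per gene was not made equal between the classes. Promoters followed the same order, with 11.1% opened at induced genes, 3.38% at repressed and 2.72% at others, and 2.77%, 12.2% and 4.26% closed. AP-1 words were in 67.6% of opened OCRs near induced, 77.8% near repressed and 70.9% near other genes, and the differences between these shares were not tested. The mean level of Npy RNA over the 4 fasted libraries was 1999 CPM with an SD of 879, and over the 3 fed libraries 611 CPM with an SD of 222. Agrp RNA was 1365 ± 533 against 390 ± 109 CPM. Neither passed without the block (edgeR FDR 0.113 and 0.0524), and both passed with it (1.16e-04 and 8.74e-05).

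Chromatin calls at further genes chosen for a change in RNA are given beside their RNA. RNA levels are given as mean ± SD over 3 fed and 4 fasted libraries. Lyve1, a hyaluronan receptor, rose from 0.987 ± 0.554 to 28.1 ± 8.64 CPM in RNA, and 2 of its 3 OCRs opened, beside 18.1% of all OCRs. The Lyve1 OCR 3.11 kb upstream had 16 and 17.7 CPM in fasted and 2.01 and 4.61 CPM in fed libraries (2.22 ± 0.34). The Lyve1 promoter peak rose by 0.91 and was lost without fasted replicate 1 (0.56, FDR 0.231) or fed replicate 1 (0.78, FDR 0.0820). Kcnv2, a potassium channel subunit, rose from 0.263 ± 0.0339 to 3.88 ± 1.62 CPM in RNA, and 6 of its 9 OCRs opened. The Kcnv2 OCR of smallest p-value had 8.21 and 6.69 CPM in fasted and 0.378 and 0.439 CPM in fed libraries. Sphk1, which makes the lipid signal sphingosine 1-phosphate, rose from 0.694 ± 0.181 to 10.3 ± 4.19 CPM in RNA. Its promoter opened, from 6.04 and 6.87 CPM in fed to 19 and 21.1 CPM in fasted libraries (1.62 ± 0.29).

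The Svs2 promoter peak was the only tested OCR of that gene and had 5.69 and 1.89 CPM in fasted and 0.881 and 1.10 CPM in fed libraries. It was called (1.88, FDR 0.0167) through fasted replicate 1, and without that library the log2 fold change was 0.90 (FDR 0.312). It was also lost without fed replicate 1 (FDR 0.0690) or fed replicate 2 (0.0869) and under GC offsets. Sox4, a developmental factor whose RNA rose from 13.3 ± 2.45 to 50.5 ± 9.98 CPM, had 5 opened and 4 closed OCRs of 27, beside 18.1% opened and 8.88% closed of all OCRs. The Sox4 OCR of smallest p-value, 8.83 kb downstream, closed, from 4.78 and 3.22 CPM in fed to 0.194 and 0.442 CPM in fasted libraries. Cldn2 RNA fell from 2.54 ± 0.536 to 0.51 ± 0.172 CPM, and neither of its 2 tested OCRs was called. Across the 28 fixed genes, the promoters of Nr4a1, Lyve1, Svs2 and Sphk1 were called. The other tested promoters of these genes were not. Their log2 fold changes ran from -0.49 at Sox2 to 0.33 at Npy. Between these lay -0.37 at Corin and Pcsk1, -0.13 at Fkbp5, -0.10 at Per1, -0.02 at Socs3 and 0.05 at Sox4. The Npas4 OCR of smallest p-value was not called either (-0.34). Outside the 28 genes, the Dbp promoter closed and the promoters of Aqp4 and Pecam1 opened, as given above.

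Leptin given to fasted mice left the median level of these regions near that of fasted mice 3 h later. The leptin comparison shares the 2 fasted libraries with the fasted against fed comparison. Values and counts are therefore set side by side, and differences between the classes were not tested. The median opened OCR had 6.27 and 5.72 CPM in leptin libraries, beside 5.69 and 5.74 CPM in fasted and 1.38 and 1.68 CPM in fed libraries. The median closed OCR had 2.32 and 2.49 CPM in leptin libraries. Over all OCRs 684 were lower with leptin than in fasted mice (0.669%) and 2462 higher (2.41%). Of the 18512 opened OCRs 238 were lower with leptin and 287 higher. Of the 9076 closed OCRs 36 were lower and 289 higher. The Npy downstream OCR had 65.1 and 39.2 CPM with leptin, overlapping the fasted libraries, and the closed OCR near Iqcm, with 0.194 and 0.0631 CPM in fasted and 6.29 and 1.76 CPM in fed libraries, had 1.76 and 1.70 CPM.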

How the data were processed

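Raw ATAC-seq read counts per peak were deposited for fasted, fed and leptin AgRP nuclei. The authors aligned reads to mm10 with Bowtie2, filtered duplicates, called peaks with MACS2, merged them and counted coverage with bedtools. A shift for the transposase is not given in the sources used here. Raw RNA counts per gene, also deposited, came from HISAT2 and featureCounts. CTCF regions are a deposited narrowPeak list with fold enrichment per peak, and IRF3 regions a deposited SEACR list with signal per peak. Only their positions were used (overlap of at least 1 base), on the assumption that they are on mm10.

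Peaks with a mean above 1 CPM over 6 libraries were fitted in edgeR 4.0.16 (R 4.3.3) by state with TMM scaling. All CPM are TMM-scaled, and SE was taken from the log2 fold change and its F statistic. RNA used the same test. The fits were tested on simulated data. Genes are GENCODE M21 and sequences RefSeq GRCm38, read as 300 central bases for motifs. The ratio of sorted nuclei had 1 CPM added to each mean. DESeq2 1.42.0 and other settings (20 for ATAC, 11 for RNA) were tried. Deposited log2 CPM of the same libraries were not used. Of per-sample columns, 6 were not used because no sample here matched them.

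Members and gene lists were chosen with earlier results of these data known. Named peaks were the 5 of largest fold and 5 of smallest p-value per direction among those whose libraries did not overlap, and for 28 fixed genes the promoter peak and the peak of smallest p-value. Of these, 1 of small p-value is not reported here, and uncalled promoter peaks are given in part by their range. Genes with the most called peaks, and the members of a list with the most, were also named. The Aqp4 and Pecam1 promoters and further Npy and Dbp peaks were chosen after their values were seen. Deviations of ATAC libraries of one number correlated at 0.155, 0.165 and -0.002, so the numbers were not taken to pair them, although the mitochondrial share was higher in replicate 1 of every state. Those of RNA libraries correlated at 0.536 to 0.814 in 10 pairs, so the blocked RNA counts are given too.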

Additional observations from a re-analysis of the deposited data

Results flagged for a closer look

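In the RNA of the 4 fasted libraries, 4 of 28 named genes had a library far from the other 3 by Dixon's criterion, which chance meets in about 1 of 20 groups. Ghsr was lowest in fasted replicate 2, at 234.451 CPM, with the nearest library at 326.335 CPM. Fkbp5 was highest in fasted replicate 3, at 235.371 CPM, with the nearest at 190.651 CPM. Slc17a6, the vesicular glutamate transporter, was highest in fasted replicate 2, at 281.756 CPM, with the nearest at 161.791 CPM. Olig2 was highest in fasted replicate 4, at 7.49721 CPM, with the nearest at 4.14113 CPM. The ATAC groups of 2 libraries were too small for this criterion.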

How the results depend on the processing

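Beside 18512 opened and 9076 closed OCRs, a mean CPM over 4 gave 10542 and 3349, and an FDR of 0.01 with a log2 fold change of 1 gave 10551 and 3687. Closed OCRs numbered 4775 with TMM on promoters, 4695 on CTCF peaks, 14824 with GC offsets and 18159 with the replicate block and GC offsets. The replicate block alone gave 21080 opened and 11752 closed OCRs, although the numbers were not taken to pair these libraries. Leaving out 1 library gave 12026 to 16980 opened, the fewest without fed replicate 2, and 4704 to 8392 closed, the fewest without fed replicate 1. The median log2 fold change of all OCRs (-0.04) was 0.0153 with library size, -0.0697 with RLE, 0.1781 with promoter and 0.2399 with CTCF scaling, -0.0970 with abundance and -0.1206 with GC offsets, -0.0719 with DESeq2, -0.1242 with block and GC offsets, and -0.0430 to 0.0201 without 1 library. That of promoters (-0.22) was -0.0078 with promoter and 0.0589 with CTCF scaling, -0.1337 with GC offsets, -0.1353 with block and GC offsets, and -0.2776 to -0.1319 without 1 library. Induced and repressed genes (378 and 143) numbered 148 and 90 with library size and 590 and 340 with the replicate block, and 200 to 431 and 67 to 250 without 1 library. The cause of these shifts was not tested. Of 51 called named peaks, 40 were called under every setting that gave a value, and no named call changed sign. The state comparison rests on 2 pools each, and the shallowest library held 8263234 counts; the smallest change detectable at this depth was not measured.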
